A study of Mus musculus with 8 samples.

Results

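Mevalonate pathway enzymes were lower on average in lactating mammary glands without Th-POK than in WT glands, for all 9 genes examined, but the difference passed the test for 1 of them, Mvd. The 9 genes, Acat2, Hmgcs1, Mvk, Pmvk, Mvd, Idi1, Fdps, Fdft1 and Ggps1, were chosen by name as enzymes of this route. The rule for the choice used no signal on the arrays, but earlier results of these data were known. These 9 of the 18749 genes with a matched probe were measured by 15 probes. All 9 passed the filter on dim probes that left 14137 genes for testing.

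The arrays compared No. 4 mammary glands of 4 wild-type (WT) dams with those of 4 dams deficient for Th-POK (KO), a zinc finger transcription factor encoded by Zbtb7b. All dams were of the C57/Bl6 background and were taken on day 1 of lactation, and each array held the RNA of 1 dam. The KO mice lack Th-POK in every cell and not in the mammary epithelium alone. RNA was labelled with Cy3 and hybridized to 1-colour Agilent arrays, so the value of a gene is the brightness of its probe, given here as log2 signal after quantile normalization between the 8 arrays. A difference of 1 in log2 signal is a 2-fold change.

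The mevalonate pathway builds isoprenoid units from acetyl-CoA in the cytosol. Its product farnesyl diphosphate is the branch point to squalene and cholesterol on one side, and to prenyl groups, dolichol and ubiquinone on the other. Transcription of these enzymes is under control of the SREBP transcription factors, which are released from the endoplasmic reticulum when sterols are low and bind sterol regulatory elements, often beside binding sites for NF-Y and Sp1. In the lactating gland the epithelium makes cholesterol as well as fatty acids for milk.

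The genomic sequence before the start site of 5 of these genes is printed because the enzymes share a regulator by textbook knowledge. They are Hmgcs1, the gene with a sterol regulatory element in the window, Mvd, the gene that passed the test, Idi1, with the largest mean difference, Mvk, with the most NF-Y boxes, and Ggps1, with the smallest mean difference. Each line holds the 250 bases before the start site, 5′ to 3′ on the strand of the gene, from the RefSeq annotation of GRCm38.p6. They lie at chr13:119690101-119690350 (plus strand), chr8:122443423-122443672 (minus strand), chr13:8885356-8885605 (plus strand), chr5:114444019-114444268 (plus strand) and chr13:14063489-14063738 (minus strand). Capitals mark TCACNCCAC, a form of the sterol regulatory element, and CCAAT, the NF-Y box, each on either strand, so that an NF-Y box on the other strand reads ATTGG.
Hmgcs1: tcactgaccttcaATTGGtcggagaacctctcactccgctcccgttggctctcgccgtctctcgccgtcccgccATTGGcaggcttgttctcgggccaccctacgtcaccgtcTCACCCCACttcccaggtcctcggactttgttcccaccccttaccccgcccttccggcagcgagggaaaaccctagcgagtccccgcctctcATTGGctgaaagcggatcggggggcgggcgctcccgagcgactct
Mvd: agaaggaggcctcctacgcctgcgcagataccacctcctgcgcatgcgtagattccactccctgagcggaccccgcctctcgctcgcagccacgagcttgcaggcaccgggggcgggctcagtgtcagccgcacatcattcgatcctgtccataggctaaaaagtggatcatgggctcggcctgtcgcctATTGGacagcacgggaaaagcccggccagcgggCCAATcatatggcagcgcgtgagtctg
Idi1: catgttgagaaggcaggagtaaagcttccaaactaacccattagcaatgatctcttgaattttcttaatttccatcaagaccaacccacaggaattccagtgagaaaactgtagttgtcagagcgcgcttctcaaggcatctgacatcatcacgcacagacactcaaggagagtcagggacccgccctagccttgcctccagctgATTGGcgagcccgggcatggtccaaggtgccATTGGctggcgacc
Mvk: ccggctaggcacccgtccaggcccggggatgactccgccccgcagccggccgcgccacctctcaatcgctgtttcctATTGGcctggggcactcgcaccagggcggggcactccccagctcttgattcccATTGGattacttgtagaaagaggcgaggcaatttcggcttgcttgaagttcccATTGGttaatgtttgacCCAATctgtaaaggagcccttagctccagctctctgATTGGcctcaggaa
Ggps1: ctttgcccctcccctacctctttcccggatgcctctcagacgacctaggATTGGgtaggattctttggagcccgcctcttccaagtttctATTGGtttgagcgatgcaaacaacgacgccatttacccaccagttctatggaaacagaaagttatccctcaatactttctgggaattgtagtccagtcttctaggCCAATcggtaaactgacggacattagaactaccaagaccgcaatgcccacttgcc

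In the 300-base windows from 250 bases before to 50 after the start, available for 7 of the 9 genes, TCACNCCAC was found in 1, Hmgcs1, at position -137 from the start. It was found in 1.24% of all 32851 windows and in 1.17% of the windows of genes tested. CCAAT was in the windows of 6 of the 7 genes, all but Acat2, and in 37.3% of the windows of genes tested. The GC box GGGCGG was in 5 of the 7, against 58.3%, and the E-box CACGTG was in 0 of the 7, against 9.48%. The element in Hmgcs1 overlapped none of the other motifs. A match is a string of letters and not a measured site, and a window without one says nothing of binding elsewhere. Fdps and Fdft1 were not searched. Pmvk had 2 annotated starts, and CCAAT was in the window of 1 of them.

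Zbtb7b itself checked the labels. Its log2 signals were 9.90, 10.42, 10.13 and 10.23 on the WT arrays, and on the KO arrays it was not well above background on any. With the lowest signal of probes well above background as the bound, Zbtb7b in KO glands was at least 81.5-fold lower. The share of probes well above background ran from 66.8% to 75.3% per array, and 0 spots were saturated. The 4 WT arrays shared 1 slide and the 4 KO arrays another, so genotype and slide cannot be told apart in any value below. Pmvk and Fdps lie on chromosome 3 with Zbtb7b, with 6 and 20 protein-coding genes between.

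The first enzyme, the cytosolic thiolase encoded by Acat2, joins 2 acetyl-CoA into acetoacetyl-CoA. Its log2 signals were 8.86, 9.81, 8.47 and 9.96 on the WT arrays and 7.71, 8.69, 7.67 and 9.78 on the KO arrays. The fourth KO array lay just below the 2 highest WT arrays, and the second KO array also lay above the lowest WT array, so the genotypes overlapped. The mean difference, KO minus WT, was -0.81 (standard error 0.52, 95% interval -2 to 0.38, adjusted p = 0.294 from limma). The adjacent paralog Acat3 was read by probes of its own with differences of -0.97 and -1.14, and cross-hybridization between the transcripts was not tested. Acat3 was singled out after its values were seen.

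HMG-CoA synthase 1, encoded by Hmgcs1, adds a further acetyl unit. Its log2 signals were 12.22, 12.67, 12.52 and 12.33 in WT glands and 10.96, 11.95, 11.32 and 12.42 in KO glands. WT glands were close to each other, 3 KO glands were below all of them, and the fourth KO gland was level with them. The mean difference was -0.77 (standard error 0.30, 95% interval -1.45 to -0.10, adjusted p = 0.0992 from limma). The unadjusted interval left out 0, but the gene did not pass after adjustment over all genes.

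Mevalonate kinase (Mvk) and phosphomevalonate kinase (Pmvk) add the phosphate groups in succession. Mvk had log2 signals of 7.72, 9.06, 8.24 and 9.12 in WT glands and 6.86, 7.76, 6.94 and 8.90 in KO glands. Pmvk had 12.56, 14.04, 12.89 and 13.73 in WT glands and 11.39, 12.41, 11.60 and 13.46 in KO glands. For both kinases WT arrays 2 and 4 were the highest of WT and KO array 4 the highest of KO, inside the WT range. The mean difference was -0.92 for Mvk (standard error 0.49, 95% interval -2.04 to 0.21, adjusted p = 0.214) and -1.09 for Pmvk (standard error 0.50, 95% interval -2.22 to 0.04, adjusted p = 0.149), neither past the threshold in limma.

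Mvd, which encodes the decarboxylase that makes isopentenyl diphosphate, fell in KO glands. Its log2 signals were 11.48, 12.12, 11.87 and 11.48 on the WT arrays and 10.03, 9.86, 9.48 and 10.62 on the KO arrays. Every KO gland was below every WT gland, with a gap of 0.85 between the nearest, and each genotype spread over less than the gap between their means. The mean difference was -1.74 (standard error 0.25, 95% interval -2.31 to -1.16), a 3.33-fold lower signal (adjusted p = 0.00873 from limma). Mvd passed in all 16 alternatives, with adjusted p from 0.00562 to 0.0307.

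Idi1 encodes the isomerase that converts isopentenyl diphosphate to dimethylallyl diphosphate. Its log2 signals were 11.36, 12.69, 11.65 and 12.38 in WT glands and 8.75, 10.72, 9.35 and 11.98 in KO glands. The KO glands ranged over 3.23 log2 units, the widest among the 9 genes, from far below WT to inside the WT range. The mean difference of -1.82, or 3.52-fold, was the largest of the 9 (standard error 0.66, 95% interval -3.33 to -0.31), and its adjusted p was 0.0889 from limma.

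Fdps encodes farnesyl diphosphate synthase, which joins the units to the 15-carbon branch point. Its log2 signals were 11.19, 12.92, 12.02 and 12.68 in WT glands and 9.59, 10.82, 9.66 and 12.25 in KO glands. KO glands 1 and 3 were the lowest, KO gland 2 was also below WT, and KO gland 4 lay above WT glands 1 and 3. The mean difference was -1.62, or 3.08-fold (standard error 0.62, 95% interval -3.04 to -0.21, adjusted p = 0.0995 from limma).

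Past farnesyl diphosphate the differences were small. Fdft1, squalene synthase and the first step committed to sterols, had log2 signals of 9.96, 10.45, 10.03 and 10.08 in WT glands and 9.91, 9.79, 9.64 and 9.85 in KO glands. The genotypes did not overlap, but the nearest arrays were 0.05 apart. The mean difference was -0.33, or 1.26-fold (standard error 0.13, 95% interval -0.63 to -0.03, adjusted p = 0.107 from limma).

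Ggps1, which makes the geranylgeranyl diphosphate that anchors small GTPases in membranes, had log2 signals of 9.71, 9.63, 9.76 and 9.73 in WT glands and 9.56, 9.46, 9.55 and 9.48 in KO glands. The genotypes again did not overlap, and each varied little. The mean difference was -0.19, or 1.14-fold (standard error 0.09, 95% interval -0.39 to 0.00, adjusted p = 0.14 from limma).

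**Figure D1:**
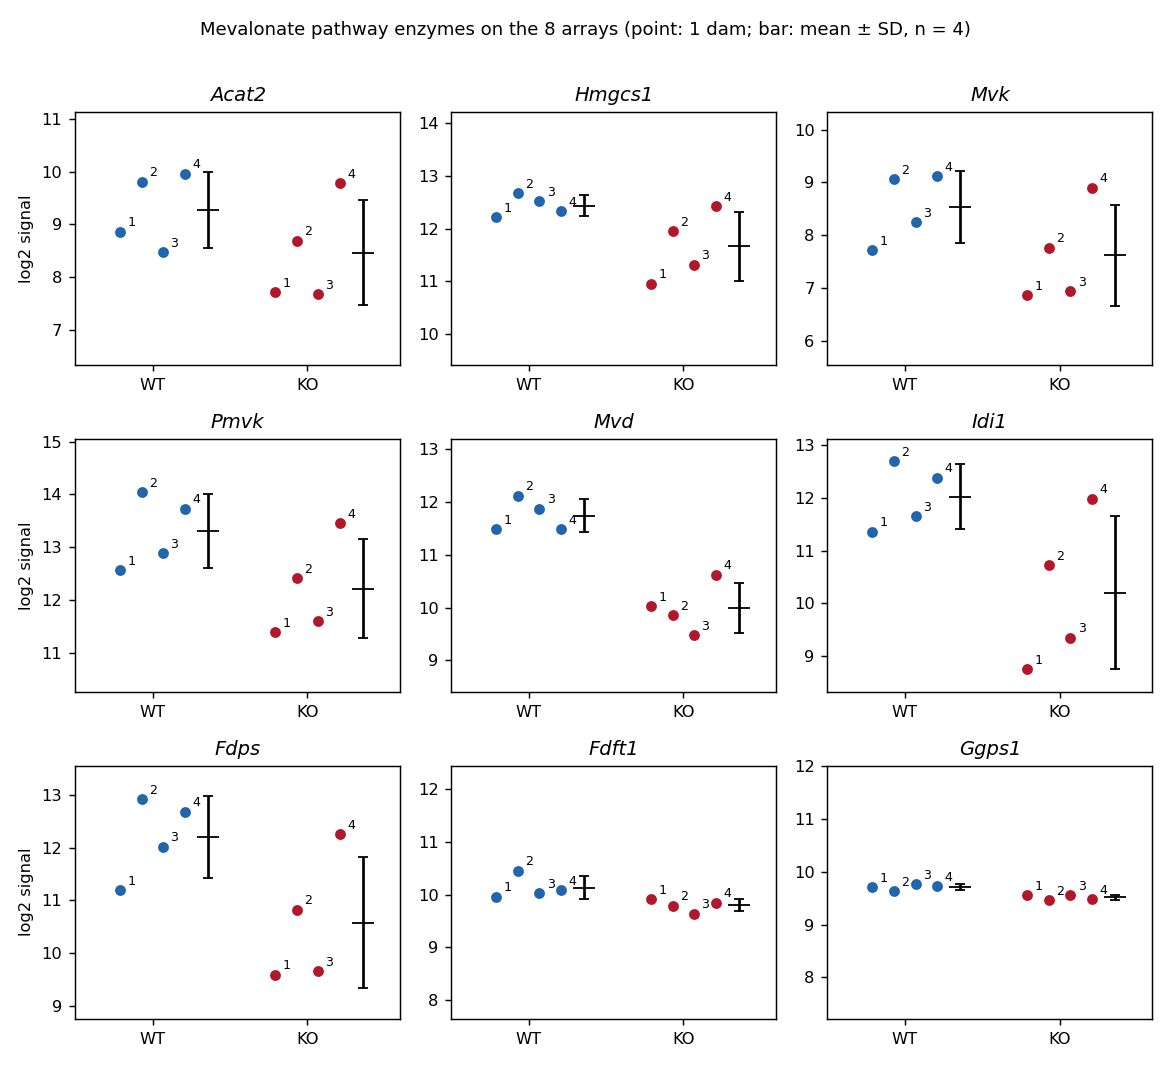
Log2 signal of each of the 9 genes (y axis, every panel spanning the same number of log2 units) in the 4 WT (blue) and 4 KO (red) glands; digits are replicate numbers, and bars give the mean ± SD. Mvd is separated between the genotypes by 0.85, KO gland 4 is inside the WT range for 6 genes, and Fdft1 and Ggps1 vary little.

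Of the 9 genes, 9 were lower on average, as were 52.4% of all genes tested. At an adjusted p under 0.05, 1 of the 9 was called lower and 0 were called higher. Over all genes tested, 8.96% were called lower and 7.53% higher, and 1 of 9 is near that share. The count was 6 of 9 with the replicate number as a block, against 10.8% of all genes, and 5 of 9 without KO array 4, against 8.96%. The median difference of the 9 genes was -0.92, against -0.02 over all genes tested, and 4 of the 9 differed by at least 1 log2 unit, as did 3.98% of all genes in that direction. All WT glands were above all KO glands for 3 of the 9, Mvd, Fdft1 and Ggps1, and for 12.9% of all genes. In a bulk gland, fewer cells of a type and less RNA per cell cannot be told apart.

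A second probe was present for 6 of the 9 genes. Differences of the second probes were -0.76 for Hmgcs1, -0.86 for Mvk, -1.08 for Pmvk and -1.95 for Idi1, each close to that of the brighter probe. For Ggps1 the second probe gave -0.05. The second probe of Fdft1 was dim, between 4.15 and 5.09 in log2 signal, and its difference of 0.34 had the opposite sign (adjusted p = 0.247 from limma at the level of probes).

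Much of the spread within a genotype was shared by most of the genes. The mean log2 signal of the 9 genes was 10.56, 11.49, 10.83 and 11.28 on the WT arrays and 9.42, 10.16, 9.47 and 10.97 on the KO arrays. WT arrays 2 and 4 were above WT arrays 1 and 3 for 6 of the 9 genes, and KO arrays 1 and 3 were the lowest of KO for 6 of them. The fourth KO array was the highest of KO for 7 genes and inside the WT range for 6, all but Mvd, Fdft1 and Ggps1, while the other 3 KO arrays were below every WT array for 7 genes, all but Acat2 and Mvk. Zbtb7b was not above background on that array either.

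Correlations between the genes describe the same pattern, as values over 8 arrays that share processing, with each genotype on a slide of its own. With the genotype means taken out, Pearson's r was between 0.77 and 0.99 for the 15 pairs among Acat2, Hmgcs1, Mvk, Pmvk, Idi1 and Fdps (median 0.95). These 6 leave out the genes with the lowest median r, so that range follows in part from the choice. Over all 36 pairs the median was 0.67, with a range of -0.70 to 0.99. The median r of Mvd with the others was 0.66 and that of Fdft1 0.45, while Ggps1 ran the other way at -0.64. Ggps1 spread over 0.14 log2 units in WT and 0.10 in KO glands, so its r rests on very small deviations.

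The signal of Mvd less the mean of the other 8 genes was 1.04, 0.71, 1.17 and 0.22 on the WT arrays and 0.69, -0.34, 0.01 and -0.39 on the KO arrays. It was lower on average in KO glands, but the first KO array was above the fourth WT array, so the position of Mvd among the enzymes overlapped between the genotypes.

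The 5 genes called lower without the fourth KO array were Hmgcs1 (difference -1.03, adjusted p = 0.0317 from limma), Pmvk (-1.51, 0.0447), Mvd (-1.95, 0.00562), Idi1 (-2.41, 0.0259) and Fdps (-2.18, 0.0274). Mvk (-1.34, adjusted p = 0.0531), Acat2 (-1.25, 0.0785), Fdft1 (-0.35, 0.131) and Ggps1 (-0.18, 0.209) did not pass. KO array 4 was the highest of KO for 7 genes, so leaving it out lowers their KO mean. A Dixon test for single outlying arrays, on the 9 genes and their mean in each genotype, flagged 0 of 20 groups. Why that gland differed from the other KO glands was not tested.

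The glands carry replicate numbers in both genotypes, but the labels do not say what a number marks. The 6 genes called lower with the number as a block were Acat2 (adjusted p = 0.0372 from limma), Mvk (0.0358), Pmvk (0.0312), Mvd (0.0186), Idi1 (0.0288) and Fdps (0.0279). In that fit Hmgcs1 (adjusted p = 0.0720 from limma), Fdft1 (0.119) and Ggps1 (0.177) did not pass. Within pairs of the same number, the KO gland was lower for all 9 genes in pairs 1, 2 and 3, and for 8 of 9 in pair 4, where Hmgcs1 differed by 0.08. In pair 4 the difference was -0.18 for Acat2, -0.40 for Idi1 and -0.43 for Fdps, the smallest of the 4 pairs for each.

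**Figure D2:**
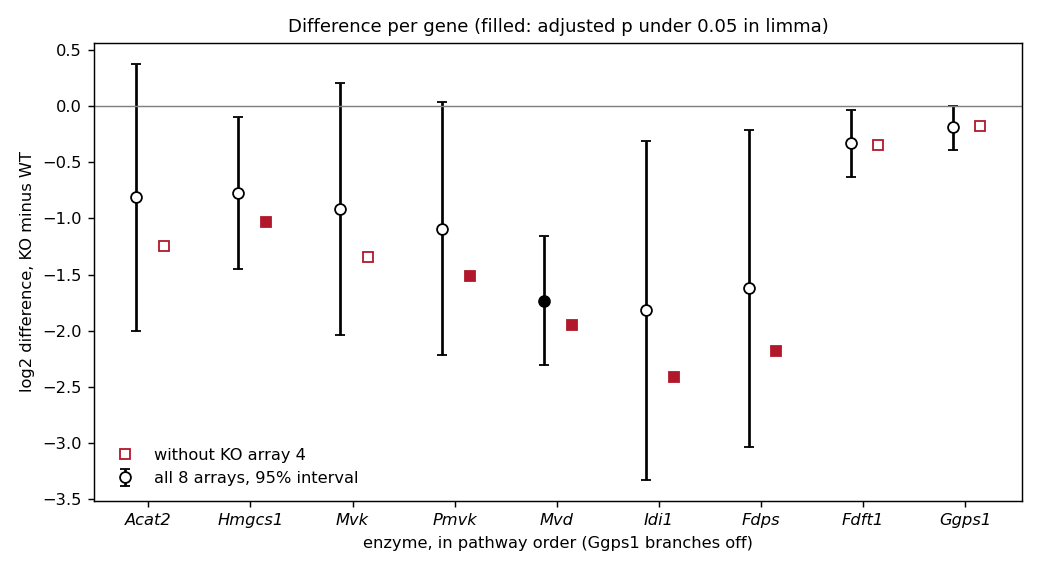
Difference in log2 signal, KO minus WT (y axis), of the 9 genes in pathway order. Circles with 95% intervals are from all 8 arrays and squares are without KO array 4, filled where the adjusted p in limma was under 0.05; 1 circle (Mvd) and 5 squares are filled.

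Enzymes that take squalene on to cholesterol were lower in KO glands on average for 12 of 12 genes, with a median difference of -1.28. Of the 12, 4 were called, all lower. Over all genes tested, 52.4% were lower on average and 8.96% were called lower, the shares to set beside the lists below too. Sqle, squalene epoxidase, had log2 signals of 12.02, 13.06, 12.52 and 12.82 in WT glands and 10.08, 10.80, 10.41 and 11.73 in KO glands, all of them below WT. It fell by 1.85 (standard error 0.36, adjusted p = 0.0182 from limma). Lanosterol synthase (Lss) fell by 1.91 (adjusted p = 0.0218), the C4-methylsterol oxidase Msmo1 by 1.35 (0.0297) and the desaturase Sc5d by 0.67 (0.0397), the last with overlap between the genotypes. Lbr (-0.43, adjusted p = 0.0513) and Hsd17b7 (-1.03, 0.0718) were next. The count was 9 without KO array 4 or with the replicate block, 0 without WT array 2 or KO array 3, 1 without KO array 1 or 2, and 2 without WT array 3. On each array the mean of the 12 followed that of the mevalonate genes (r = 0.99 over 8 arrays after the genotype means were subtracted).

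Among 7 genes for the SREBP factors, their escort and retention proteins and their proteases, 2 were called, both lower. Srebf1, which encodes SREBP1, had log2 signals of 15.40, 16.31, 15.85 and 15.62 in WT glands and 14.47, 14.66, 14.32 and 14.47 in KO glands. It fell by 1.31 (adjusted p = 0.0088 from limma, and called in all 16 alternatives), and its KO glands were all below WT and close together, the fourth included. Insig1, which retains SREBP in the endoplasmic reticulum and is itself a target, fell by 2.30 (adjusted p = 0.018), a call lost without KO array 1 or 3. Insig2 (0.35, adjusted p = 0.0598) and the protease gene Mbtps1 (0.31, 0.0656) were next and did not pass.

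Of 7 other sterol-responsive genes tested, 7 were lower on average and 3 were called. The sterol carrier gene Stard4 had log2 signals of 9.31, 10.18, 9.85 and 9.70 in WT glands and 7.96, 8.43, 7.77 and 9.09 in KO glands, without overlap. It fell by 1.45 (adjusted p = 0.0204 from limma), a call lost without WT array 2 or 3, without KO array 1 or 3, and by the t-test. Tmem97 (-1.46, adjusted p = 0.0586) and Aacs (-1.19, 0.0635) did not pass. The count was 6 without KO array 4 or WT array 1, 0 without WT array 2, WT array 3 or KO array 3, 1 without KO array 1, 5 with the replicate block and 0 by the t-test.

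The branches that use farnesyl and geranylgeranyl diphosphate showed both kinds of result. Of 10 protein prenylation genes, the transferases and processing enzymes that attach these lipids to proteins, 0 were called in limma after adjustment, 1 had an unadjusted p under 0.05, and the t-test called 0. Their median difference was -0.01, with 5 lower and 5 higher on average. Rabggta (-0.27, adjusted p = 0.108) and Chml (0.29, 0.172), both of Rab prenylation, had the smallest p.

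Of 9 genes tested for dolichol, ubiquinone and other prenyl chains, 9 were lower on average and 4 were called, by smaller amounts than the sterol enzymes. Dolpp1, a dolichyl pyrophosphate phosphatase, had log2 signals of 10.73, 11, 11.06 and 10.69 in WT glands and 10.04, 10.01, 10.25 and 10.22 in KO glands. It fell by 0.74 (adjusted p = 0.0122 from limma) without overlap. Dhdds, a subunit of the dolichol-chain synthase, fell by 0.63 (adjusted p = 0.0144) and dolichol kinase (Dolk) by 0.47 (0.0435). Srd5a3 (-0.52, adjusted p = 0.0542) and Cox10 (-0.55, 0.0714) were next. Dolpp1 and Dhdds passed in all 16 alternatives, and the count of 4 fell to 2 without WT array 2 or 3 or KO array 1, 2 or 3. It was 6 without WT array 1 or with the replicate block. Related enzymes not among the 9 genes included the Acat2 paralog Acat3 and the mitochondrial thiolases Acat1 (-0.42, adjusted p = 0.114) and Acaa2 (0.56, 0.148). They had 0 calls among 5 tested in limma, 1 at an unadjusted p under 0.05, and 0 in the t-test. With the replicate block 1 was called, Acat3 (-0.97, adjusted p = 0.0288), and without WT array 1 also 1, Acat1 (-0.55, adjusted p = 0.0384).

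**Figure D3:**
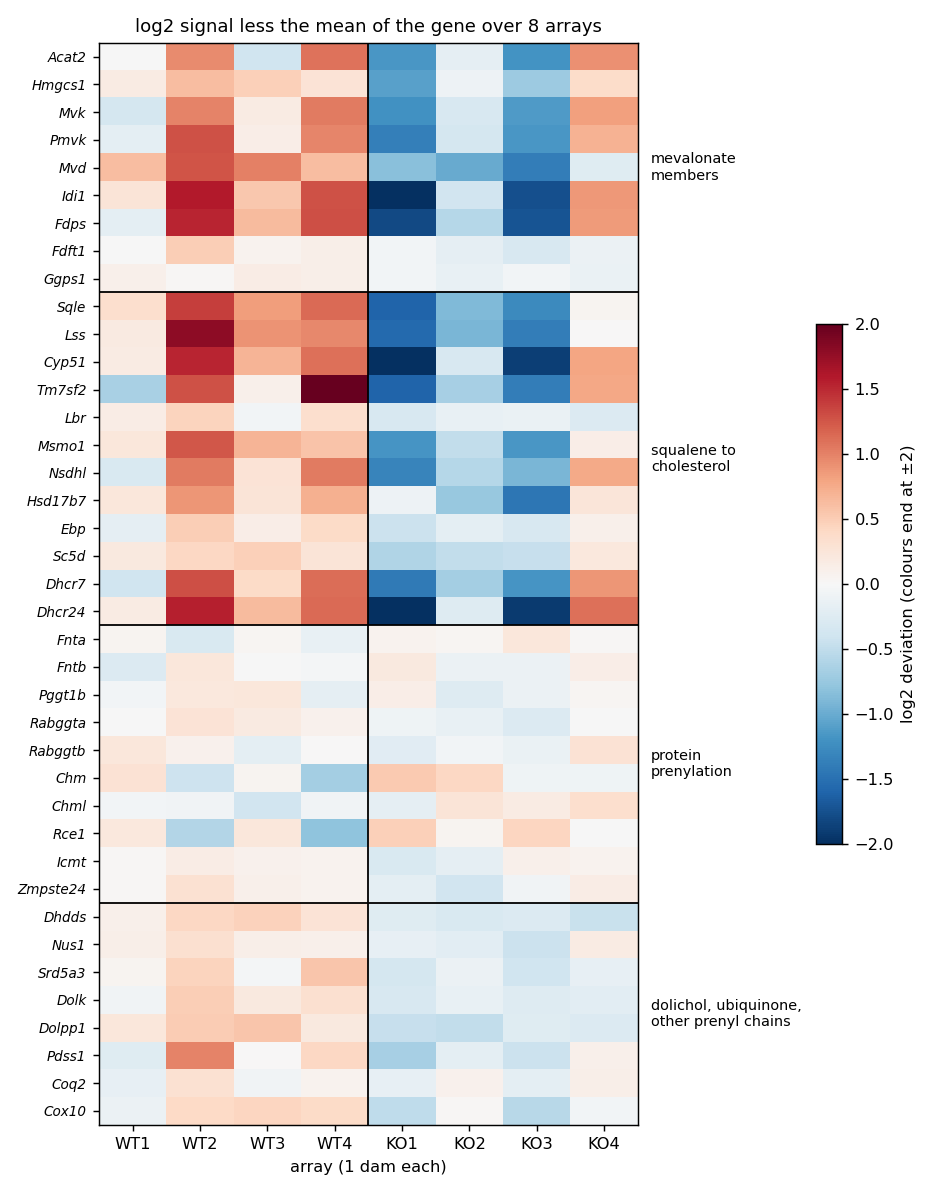
Log2 signal of each gene (rows, by list) on each array (columns, WT1 to KO4) less the mean of the gene over the 8 arrays, red above and blue below, with colours ending at 2 units; 1 gene of the last list is not shown. WT2 and WT4 are the reddest and KO1 and KO3 the bluest columns of the first 2 lists, while the prenylation list, with a median difference of -0.01, stays pale.

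Markers of the cell types of the gland were set beside the enzymes. Milk protein genes, which mark the secretory epithelium, had a mean log2 signal of 16.84 to 17.11 in WT and 16.67 to 17.16 in KO glands, and 0 of 9 tested were called by limma (0 at an unadjusted p under 0.05, and 0 by the t-test after adjustment, 1 before). Over the 8 arrays, after the genotype means were subtracted, that mean correlated with the mean of the mevalonate genes at r = 0.94. Csn1s2b varied most in the milk protein list (SD 0.56 in WT and 1.1 in KO glands), and r without it was not computed. The luminal epithelium list had a mean log2 signal of 13.24 to 13.48 in KO and 12.53 to 13.07 in WT glands, with 7 of 10 genes higher on average, 5 called higher and 1, Muc1, called lower. The mean of the luminal list ran the other way from the mevalonate genes, with r = -0.72 after the genotype means were subtracted. The adipocyte list was 12.62 to 13.27 in WT and 13.19 to 13.39 in KO glands, with 2 of 9 called higher.

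Camp and Ngp, which encode neutrophil granule proteins, were well above background on 4 KO and 0 WT arrays, and so passed the filter only through the KO glands. The other 6 genes tested of the neutrophil list, above background on all 8 arrays, had a mean log2 signal of 10.09 to 11.41 in WT and 11.48 to 12.46 in KO glands. Ltf was called higher among them, and S100a8, S100a9, Mpo, Lcn2 and Retnlg were not called. The mean signal in WT glands was 16.27 for Ltf and 15.52 for Lcn2, against 5.36 for Mpo. Which cells gave the signal of Ltf and Lcn2 was not tested. The T cell list was 6.15 to 7.34 in WT and 6.17 to 6.47 in KO glands, with 2 of 9 called lower, Cd3e and Cd4. The macrophage list was 10.31 to 10.74 in WT and 10.25 to 11.05 in KO glands, lowest of KO on the fourth array. Its mean correlated with that of the mevalonate genes at r = -0.84 after the genotype means were subtracted. Cd14 varied most in this list (SD 1.37 in WT and 1.06 in KO glands), and r without it was not computed. The part of these cell types in the result was not tested.

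**Figure D4:**
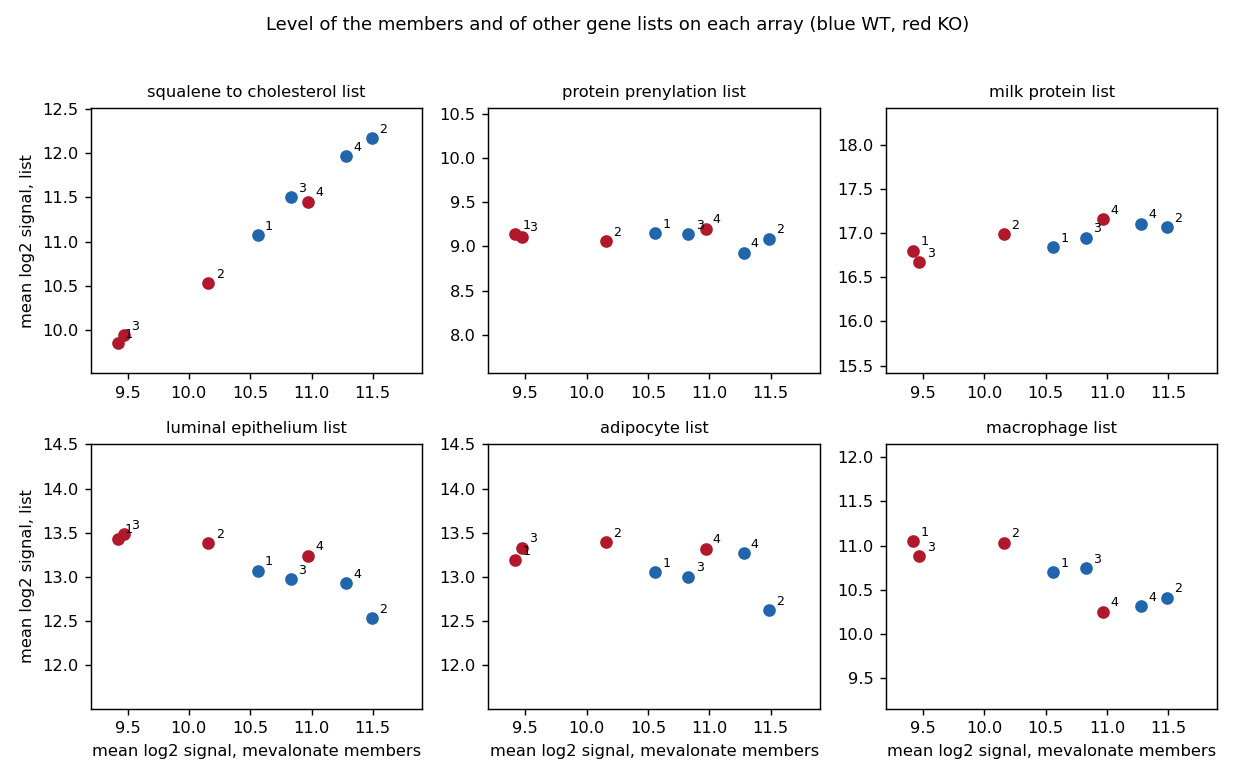
Mean log2 signal of 6 gene lists (y axes, equal spans) against that of the 9 mevalonate genes (x axis) on each array, WT blue and KO red, with replicate numbers. The squalene to cholesterol list rises with the mevalonate genes over both genotypes (r = 0.99 within genotype), and KO gland 4 lies among the WT glands; the prenylation list is level (r = -0.07 within genotype).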

How the data were processed

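RNA of 4 WT and 4 KO glands was measured on 8 1-colour arrays, 1 dam per array, with genotype and replicate number from the sample labels. The intensity values the authors deposited came from Agilent Feature Extraction (version 10.7 in the submitters' processing notes), background-subtracted within each array. A second table the authors deposited held log2 values, quantile-normalized in GeneSpring, and served as an alternative only. Its columns followed the scanner values of their arrays (r of at least 0.9985) and each had a median of 6.32.

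Log2 intensities were quantile-normalized between arrays with limma 3.58.1 in R 4.3.3. Control spots and spots marked as outliers were left out and the others averaged per probe. Symbols came from probe accessions through a RefSeq gene table of GRCm38.p6 (27479 of 41174 probes). The arrays were designed on mm9, so no coordinates are given for probes or genes, and those of the promoter windows are of GRCm38.p6. Probes entered where well above background on all 4 arrays of a genotype, and the brightest probe stood for its gene. Tests were by limma, two-sided, with Benjamini-Hochberg adjustment over 14137 genes, called at an adjusted p under 0.05. The fits were tested on simulated data. The number of arrays limits the precision.

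The genes and lists were chosen with earlier results of these data known. Beside the 9 genes and Zbtb7b, the text names of each pathway list the genes called, up to 6 by smallest p, and up to 2 not called with the smallest p, the 5 genes most like the 9 in pattern, and cell type genes as needed. A few genes that the rule names are counted in their lists but not reported here. Deviations from the genotype means correlated between arrays of the same replicate number at r = 0.22, 0.16, 0.30 and 0.28. The mean r of different numbers, -0.0788, is largely fixed by these values once genotype means are subtracted, so it is no separate comparison. The numbers were taken to pair the samples in the replicate block and the pair differences only. That pairing is a hint from the same data and not from the labels. Of the 8 arrays, 4 correlated best with the array of their own number in the other genotype, and in pair 1 neither did. Alternatives were scaling to the 75th percentile, normexp correction with an offset of 50 (on the median signal of a spot in place of its mean), no filter and a stricter filter, the mean of the probes of a gene, the authors' table, the methods' t-test, the replicate block, and leaving out each array.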

Additional observations from a re-analysis of the deposited data

How the results depend on the processing

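The median difference of the 9 genes was -0.92 and kept its sign in all 16 alternatives, from -1.34 to -0.66 with 1 array left out and from -0.92 to -0.78 otherwise. The count of the 9 genes called was 1; it was 6 with the replicate block, 2 by the t-test (Mvd and Ggps1) and 1 to 5 with 1 array left out, the 5 without KO array 4. Of 12 genes from squalene to cholesterol, 4 were called; it was 9 with the replicate block, 1 by the t-test and 0 to 9 with 1 array left out. Over all genes, 2331 were called, 1389 by the t-test, 2762 with the replicate block, and 515 (without KO array 3) to 3070 (without WT array 1) with 1 array left out. It was 756 without KO array 1, 946 without KO array 2, 767 without WT array 2 and 983 without WT array 3. Fdft1 lost its negative sign with the mean of its 2 probes (difference 0, adjusted p = 0.984 from limma), where the dim second probe enters. The cause of the other shifts was not tested. With 4 glands per genotype, the 95% intervals of Acat2, Mvk and Pmvk span 0 and differences well past 1 log2 unit.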

Other observations

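The 5 genes whose log2 signal, after the genotype means were subtracted, was most like the mean of the 9 mevalonate genes over the 8 arrays were Ins2 (r = 0.994), Fdps (0.994), Trim7 (0.993), Pmvk (0.991) and Svip (0.991), of which Fdps and Pmvk are themselves among the 9. Ins2, an insulin gene, differed by -1.03 between KO and WT glands (adjusted p = 0.0584 from limma), Trim7 by -0.64 (0.235) and Svip by -0.28 (0.526). An r above 0.9 was found for 2.82% of 14136 genes, the arrays share slides and processing, and with 8 arrays such values are a description.

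Fibroblast genes were higher in KO glands on average for 10 of 10 genes, with Dcn called (0.50, adjusted p = 0.0257 from limma). Among 10 basal epithelial genes, 7 were lower on average and Krt17 was called (-1.22, adjusted p = 0.0369). Endothelial genes had a median difference of -0.02 over 10 genes, with 0 called by limma or by the t-test after adjustment and 1 by either at an unadjusted p under 0.05.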
